A study of Homo sapiens with 16 samples.

Results

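In the integrated stress response, the transcription factor ATF4 carries the signal to the genome. When a kinase phosphorylates the initiation factor eIF2, most protein synthesis falls while ATF4 mRNA, which carries upstream reading frames, is translated more, and ATF4 protein then switches on genes for amino acid supply, feedback and cell fate. The 10 genes described here are known targets of ATF4, namely ASNS, PHGDH, PSAT1, SLC3A2, ATF3, TRIB3, CHAC1, DDIT4, SESN2 and VLDLR. They were chosen by gene symbol, and all 10 were among the 13148 genes of the table. Cells of 293S, a human line derived from HEK293, had been exposed to 1 mM sodium arsenite for 30 minutes or left untreated as control. Arsenite reacts with thiol groups and is a common agent to trigger eIF2 phosphorylation. Sucrose gradients were run for both treatments. Such a gradient sorts mRNAs by the size of the particles they travel with. From each gradient 8 fractions were sequenced, which gave 16 libraries, 1 for each treatment and fraction. The question is which fractions held each mRNA under either condition.

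No treatment was replicated. The differences are therefore given as measured in these libraries, without a replicate check and without p-values. Each value tells what percentage of an mRNA, summed over a gradient, was in 1 fraction, and the 8 shares of a gradient add up to the whole. Shares hold neither the level of an mRNA nor the read depth, and whether fraction 1 was the top or the bottom is not stated in the labels. Each library holds RNA of many cells in bulk, so a change in all cells and a larger change in some of them cannot be told apart. None of the 10 genes was listed at 0 in any library. Position is the mean fraction number weighted by the shares. The relative shift is the position with arsenite minus the position in control, less the median of that difference over all genes. Moved, here, means a relative shift of 0.5 fractions or more, up or down, whose sign did not change on leaving out any 1 of the 8 fraction numbers from both gradients.

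The promoter element that ties genes to ATF4 is a composite of a C/EBP part and an ATF part, written here as TGATGNAA and searched on both strands. Promoter windows from 250 bases before to 50 bases after an annotated start were taken from RefSeq (GRCh38.p14) and matched all 10 genes with 16 windows. The element was present in 4 of the 16 windows, against 3.62% of 35116 windows in all. The 3 matches that lie before the start are shown 5′ to 3′ on the strand of the gene, with the element in capitals. They are at chr7:97872458-97872487 on the minus strand for ASNS, chr15:40953251-40953280 on the plus strand for CHAC1 and chr1:212565205-212565234 on the plus strand for ATF3.
ASNS: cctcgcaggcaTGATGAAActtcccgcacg
CHAC1: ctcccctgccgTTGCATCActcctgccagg
ATF3: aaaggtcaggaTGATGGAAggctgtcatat
The ASNS element begins 68 bases and the ATF3 element 191 bases before the annotated start, and the ATF3 window belongs to 1 of the starts of that gene. The CHAC1 element, 209 bases before the start, reads on the opposite strand. The fourth match, in SLC3A2, lies 38 bases after a start, and no window of PHGDH, PSAT1, TRIB3, DDIT4, SESN2 or VLDLR held one. These matches describe letters in a window, and a window with no match says nothing about binding elsewhere. The gradients measure where the mRNAs lay and not their transcription.

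With arsenite, every one of the 10 mRNAs lay at lower fraction numbers in the deposited shares, as did most mRNAs of the table. Their positions ran from 2.64 for ASNS to 3.35 for VLDLR with arsenite, and from 4.23 for CHAC1 to 5.97 for PHGDH in control. The median over the 10 genes was 2.85 with arsenite and 4.87 in control, beside 3.10 and 4.54 over all genes. Fraction 2 held the largest share for 9 of the 10 mRNAs with arsenite, and fraction 3 for VLDLR, whereas 34.5% of all genes peaked in fraction 2. In control the largest share lay in fraction 5 for TRIB3, CHAC1 and ATF3, in fraction 6 for SESN2, VLDLR, DDIT4 and PSAT1, and in fraction 7 for ASNS, PHGDH and SLC3A2. Against the median gene, 4 of the 10 moved to lower numbers and none moved to higher ones. Over all genes tested, 24.0% moved to lower and 23.6% to higher numbers, and the median relative shift was −0.25 over the 10 genes and 0 over all genes by construction.

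How far the mRNAs shifted in absolute terms depends on the weights the authors gave to the fractions. These are not stated in the labels. Median-of-ratios size factors set the typical gene equal in all libraries. With them the median shift of all genes was −0.23 in place of −1.46. The shifts of the 10 genes then ran from −2.48 for PHGDH to 0.00072 for ATF3, so that ATF3 no longer lay lower with arsenite. The fraction with the largest share was then fraction 1 for ASNS and PSAT1, 4 for VLDLR and 2 for the other members with arsenite, and in control it was fraction 2 for CHAC1, DDIT4 and ATF3 and 7 for VLDLR, the other members keeping theirs. Changes of single genes are therefore given relative to the median gene.

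**Figure D1:**
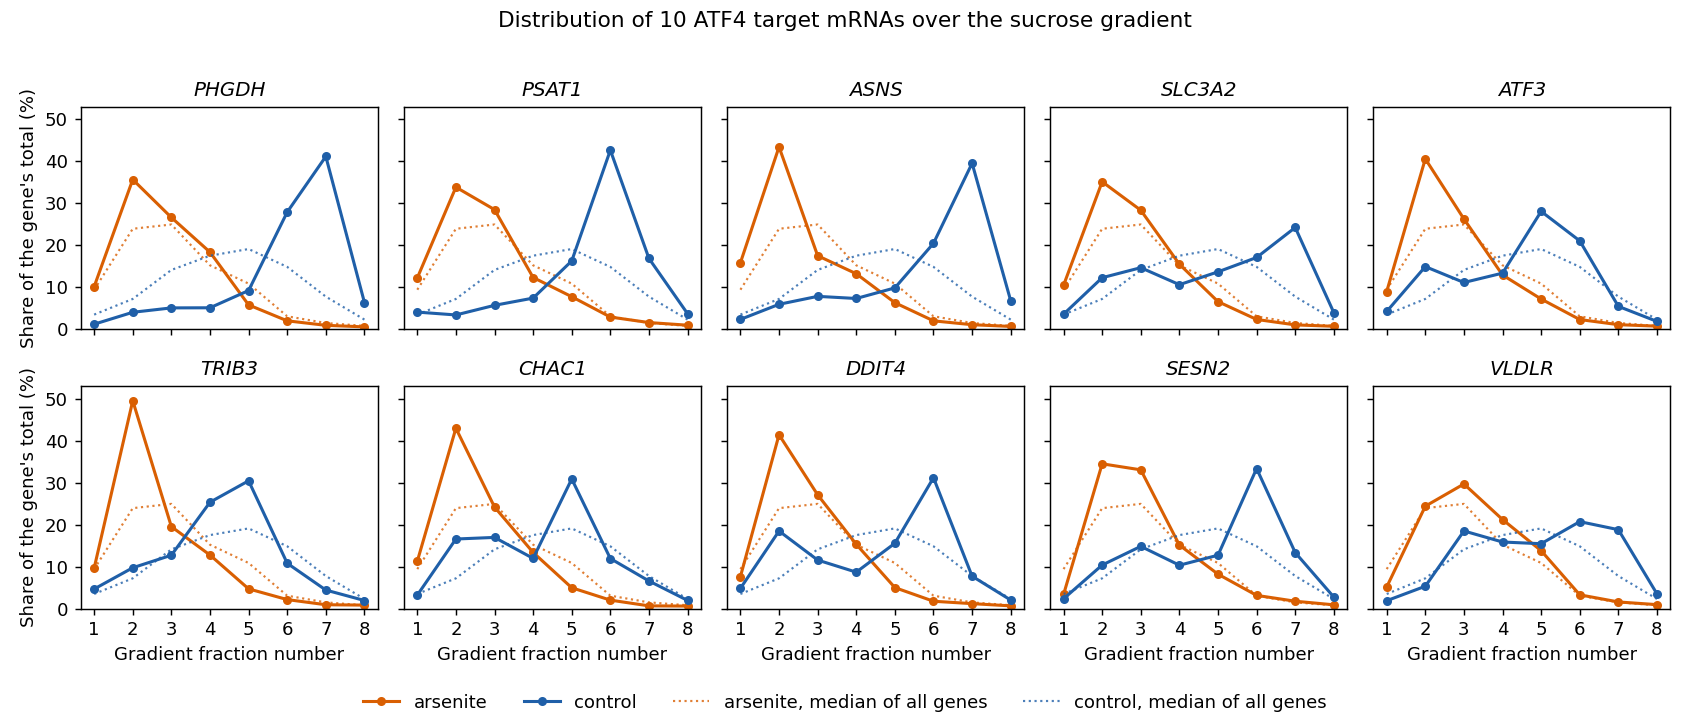
Share of each gene's total (percent) in gradient fractions 1 to 8, with arsenite (orange) and in control (blue), 1 library per point; dotted lines are the medians of all genes. The arsenite profiles peak in fraction 2 in 9 of 10 panels, whereas the control peaks lie in fractions 5, 6 or 7.

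The enzymes of amino acid synthesis were the members that moved furthest. PHGDH makes the first step of serine synthesis from a glycolytic intermediate, and its mRNA was the furthest along of the 10 in control. With arsenite its shares in fractions 1 to 8 were 10.1%, 35.7%, 26.6%, 18.4%, 5.78%, 1.99%, 0.918% and 0.547%, and in control 1.19%, 4.03%, 5.07%, 5.10%, 9.20%, 27.9%, 41.2% and 6.35%. Each of fractions 1 to 4 held a larger share with arsenite, and each of fractions 5 to 8 a larger share in control. Only 24.6% of the profile was common to both gradients, the lowest overlap of the 10, beside a median of 55.4% over all genes. With size factors the overlap was 44.3% for PHGDH, still the lowest of the 10, beside a median of 72.8%. PHGDH lay at 2.86 with arsenite and 5.97 in control, and its relative shift of −1.65 fractions placed it at percentile 0.882 of all genes.

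PSAT1, the aminotransferase that follows PHGDH in the same pathway, had a sharper control peak. Its shares in fractions 1 to 8 were 12.2%, 33.8%, 28.5%, 12.3%, 7.74%, 2.89%, 1.58% and 0.948% with arsenite, against 4.07%, 3.39%, 5.68%, 7.40%, 16.3%, 42.7%, 16.9% and 3.69% in control. The share in fraction 6 in control was the highest that any of the 10 reached in that gradient. PSAT1 lay at 2.89 with arsenite and 5.42 in control, a relative shift of −1.07. GENCODE lists 4 pseudogene copies of PSAT1 and 4 of ASNS, so reads could be shared with them and both profiles are uncertain to that extent.

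ASNS, asparagine synthetase, makes asparagine from aspartate and glutamine and is the textbook target of the element shown above. With arsenite its shares were 15.8%, 43.4%, 17.5%, 13.2%, 6.31%, 1.98%, 1.07% and 0.653% over fractions 1 to 8, and in control 2.33%, 5.93%, 7.82%, 7.31%, 9.84%, 20.5%, 39.5% and 6.77%. ASNS held the largest share of the 10 in fraction 1 with arsenite. Its position was 2.64 with arsenite and 5.70 in control. The relative shift was −1.60, at percentile 1.24 of all genes. ASNS and PHGDH had closely similar control profiles, which differed by 9.06 percentage points of their total, the smallest difference of the 45 pairs in control; with arsenite they differed by 14.3 points. Another annotated gene on the same strand, AC079781.5, shares exon sequence with ASNS in GENCODE.

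SLC3A2 encodes the heavy chain shared by several amino acid transporters of the cell surface. Its shares in fractions 1 to 8 were 10.5%, 35.1%, 28.3%, 15.5%, 6.56%, 2.32%, 1.02% and 0.688% with arsenite, against 3.57%, 12.3%, 14.7%, 10.6%, 13.7%, 17.1%, 24.2% and 3.93% in control. Its control peak, the 24.2% of fraction 7, was the lowest among the members called moved. SLC3A2 lay at 2.87 with arsenite and 4.86 in control, and its relative shift of −0.54 lay just past the threshold. The call was lost without fraction 7, at −0.14, and when 1 percentage point was added to every share, at −0.498. SESN2, at −0.31, was the nearest gene on the other side of the threshold.

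The remaining 6 genes encode regulators, stress proteins and a receptor, and none of them was called moved. ATF3 is a transcription factor that ATF4 induces and that acts with it on further targets. Its shares in fractions 1 to 8 were 8.96%, 40.6%, 26.3%, 12.9%, 7.18%, 2.30%, 1.07% and 0.720% with arsenite, and 4.21%, 14.9%, 11.1%, 13.4%, 28.1%, 21.0%, 5.43% and 1.85% in control. Fraction 4 held nearly the same share in both gradients, and the exchange lay on either side of it. ATF3 lay at 2.84 with arsenite and 4.40 in control, with a relative shift of −0.11.

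TRIB3, a pseudokinase that holds back ATF4 and the kinase AKT, had its control maximum in fractions 4 and 5. Shares with arsenite were 9.63%, 49.5%, 19.5%, 12.8%, 4.69%, 2.14%, 0.910% and 0.823%, and shares in control 4.66%, 9.73%, 12.7%, 25.3%, 30.4%, 10.8%, 4.41% and 1.92%. Fraction 2 with arsenite held nearly as much of TRIB3 as the other 7 fractions together, the highest single share of any member. TRIB3 lay at 2.68 with arsenite and 4.27 in control, and its relative shift was −0.14. CHAC1, an enzyme that degrades glutathione, had shares of 11.3%, 43.0%, 24.2%, 13.4%, 4.96%, 2.01%, 0.642% and 0.590% with arsenite, and of 3.20%, 16.6%, 17.0%, 12.0%, 30.9%, 11.9%, 6.57% and 1.94% in control. The control profile of CHAC1 had a shoulder in fractions 2 and 3 beside its peak in fraction 5. It lay at 2.69 with arsenite and 4.23 in control, with the relative shift nearest to 0 of the 10 genes, at −0.08.

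DDIT4 and SESN2 both restrain the growth kinase complex mTORC1, SESN2 by way of leucine sensing. DDIT4 had shares of 7.61%, 41.4%, 27.1%, 15.3%, 4.99%, 1.74%, 1.17% and 0.643% with arsenite, and of 4.82%, 18.5%, 11.6%, 8.67%, 15.6%, 31.2%, 7.71% and 2.02% in control. Its control profile had a pair of maxima, in fractions 2 and 6, with the lowest value between them in fraction 4. DDIT4 lay at 2.82 with arsenite and 4.46 in control, a relative shift of −0.19. SESN2 had shares of 3.35%, 34.5%, 33.1%, 15.1%, 8.20%, 3.14%, 1.75% and 0.889% with arsenite, and of 2.33%, 10.4%, 14.8%, 10.3%, 12.7%, 33.4%, 13.3% and 2.73% in control. It held about as much in fraction 3 as in fraction 2 with arsenite, unlike the 8 other members that peaked in fraction 2. SESN2 lay at 3.11 with arsenite and 4.88 in control.

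VLDLR, a receptor for lipoproteins and reelin, had the longest coding sequence of the 10, at 2622 nt, and the lowest peak in each gradient. Its shares were 5.13%, 24.4%, 29.7%, 21.2%, 13.8%, 3.27%, 1.57% and 0.934% with arsenite, and 1.87%, 5.32%, 18.5%, 15.9%, 15.5%, 20.7%, 18.8% and 3.50% in control. No single fraction held more than 29.7% of VLDLR in either gradient. VLDLR lay at 3.35 with arsenite and 4.93 in control, with a relative shift of −0.12. Exons of VLDLR and DDIT4 overlap antisense genes, VLDLR-AS1 and DDIT4-AS1, and whether strand was used in counting is not stated in the labels, so reads of each pair cannot be told apart.

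**Figure D2:**
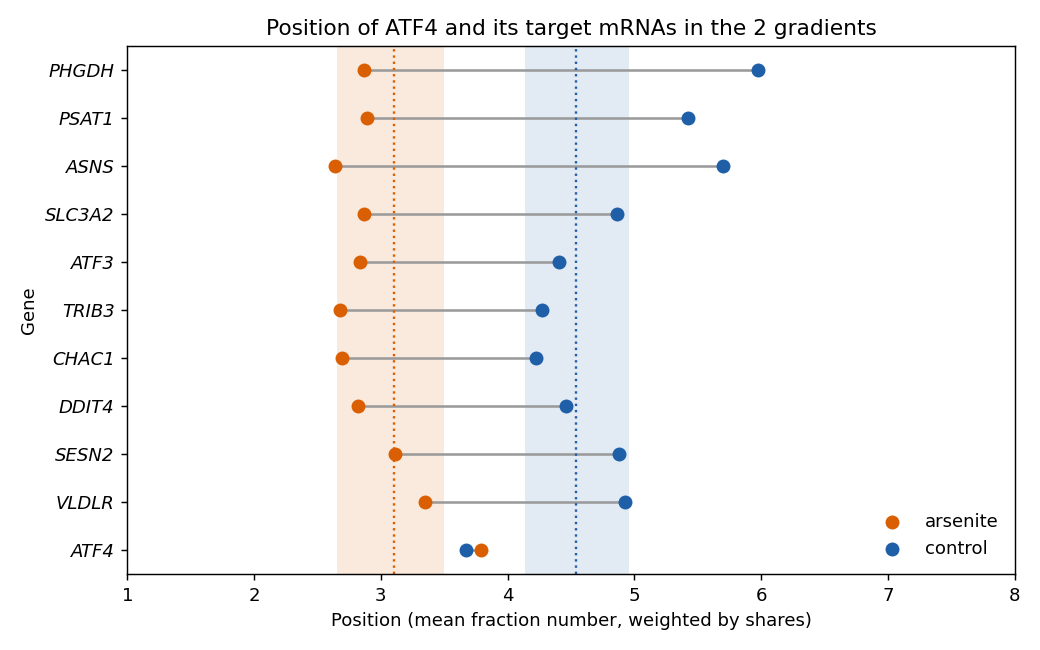
Position of each mRNA (mean fraction number) with arsenite (orange) and in control (blue), 1 gradient each; shaded bands and dotted lines are the quartiles and medians of all genes. The 10 targets lie between 2.64 and 3.35 with arsenite and between 4.23 and 5.97 in control, and the ATF4 points at 3.79 and 3.67, all in the deposited weighting of the fractions; with size factors ATF4 lay at 5.08 with arsenite and 3.44 in control.

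The 10 mRNAs lay closer together with arsenite than in control. Their positions spanned 0.71 fractions with arsenite and 1.75 in control. Across all genes the distance between the quartiles was about equal in the gradients, 0.84 with arsenite and 0.82 in control. That distance and the full span of 10 genes are unlike measures. Of the 45 pairs of members, 42 had profiles that differed less with arsenite than in control. The median difference of a pair was 10.7 percentage points of the total with arsenite and 28.0 in control. PHGDH and SLC3A2 were the most alike with arsenite, differing by 3.41 points, against 30.2 in control. The pairs that differed more with arsenite were ASNS with VLDLR, ASNS with PHGDH and VLDLR with SLC3A2. With size factors the positions spanned 1.04 fractions with arsenite and 2.34 in control. Pair differences were not computed for other sets of genes. Whether the closer profiles with arsenite are particular to the targets was therefore not tested.

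Neighbours in the order of positions were often close. With arsenite DDIT4, ATF3, PHGDH, SLC3A2 and PSAT1 lay within 2.82 to 2.89, and SESN2 and VLDLR stood above them. In control VLDLR, SESN2 and SLC3A2 lay within 4.86 to 4.93. Without replicates, the spread against which such small steps should be read is unknown.

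Summed over fractions 5 to 8, the 10 genes kept between 8.20% (CHAC1) and 19.6% (VLDLR) of their total with arsenite, against 47.6% (TRIB3) to 84.6% (PHGDH) in control. The median over the members was 10.3% with arsenite and 58.7% in control, beside 16.4% and 53.9% over all genes. Put as a ratio, the share in these fractions with arsenite was 10.9% of that in control for PHGDH, the lowest, and 33.5% for VLDLR, the highest. The median of this ratio was 17.3% over the members and 32.7% over 13135 genes. For 9 of the members, all but VLDLR, it was below that median. These sums depend strongly on the weighting of the fractions. With size factors, fractions 5 to 8 held 32.0% (CHAC1) to 52.4% (VLDLR) with arsenite and 41.6% (TRIB3) to 86.4% (PHGDH) in control. The share with arsenite was then 39.2% of that in control for PHGDH, again the lowest, and 89.3% for TRIB3, which became the highest with 37.1% with arsenite and 41.6% in control. The median of the ratio was 75.4% over the members and 94.5% over all genes, and all 10 members lay below that median. Fractions 1 and 2 together held from 29.5% (VLDLR) to 59.3% (ASNS) with arsenite, and from 5.21% (PHGDH) to 23.3% (DDIT4) in control. With size factors they held 17.8% (VLDLR) to 44.8% (ASNS) with arsenite and 7.84% (PHGDH) to 39.7% (DDIT4) in control, and SESN2, DDIT4 and ATF3 held less there with arsenite than in control.

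Fraction by fraction, the 10 genes changed in the same direction except in fraction 4. In each of the other fractions the all-gene median had the same sign as the 10 genes. The share of all genes with each sign was not computed. Log2 ratios were formed from the shares plus 1 percentage point, so changes of small shares are understated. The log2 ratio of arsenite to control in fraction 2 ran from 1.12 for DDIT4 to 2.99 for PSAT1, beside a median of 1.50 over all genes. In fraction 6 it ran from −3.55 for DDIT4 to −1.91 for TRIB3, and the all-gene median was −1.85. The lowest value in fraction 7 was −4.46 for PHGDH and the highest −1.50 for TRIB3, around an all-gene median of −1.86. ASNS, at −4.29 in fraction 7, was close to PHGDH. In fraction 4 the ratio was above 0 for 8 genes and below 0 for TRIB3 and ATF3. The median there was 0.51 over the 10 genes and −0.18 over all genes. With size factors the 10 genes no longer shared their directions in the other fractions. In fraction 2 the ratio was then above 0 for 7 genes and in fraction 6 below 0 for 8.

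Control position and relative shift went together among the members. The Spearman correlation was −0.84 across the 10 genes and −0.55 across all 13148, which are not independent replicates, and the control position is itself part of the shift. ASNS and PHGDH were in the highest of 20 equal bins of control position, in which the median relative shift of all genes was −0.84 and 71.3% of genes moved lower. Measured from the median of their own bin, ASNS lay at −0.76 and PHGDH at −0.82 and both were still called moved to lower numbers. PSAT1, at −0.45, and SLC3A2, at −0.36, no longer were. Coding length, which limits how many ribosomes an mRNA can carry, had a Spearman correlation with control position of 0.64 across the members and 0.38 across 12316 genes with an annotated length. With the position under arsenite the correlation was 0.42 across the members and 0.67 across those genes. With the relative shift it was −0.48 and 0.26 in the same order, opposite in sign. The coding sequence was 546 nt long for ATF3, the shortest, while PHGDH, the furthest along in control, had 1602 nt.

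**Figure D3:**
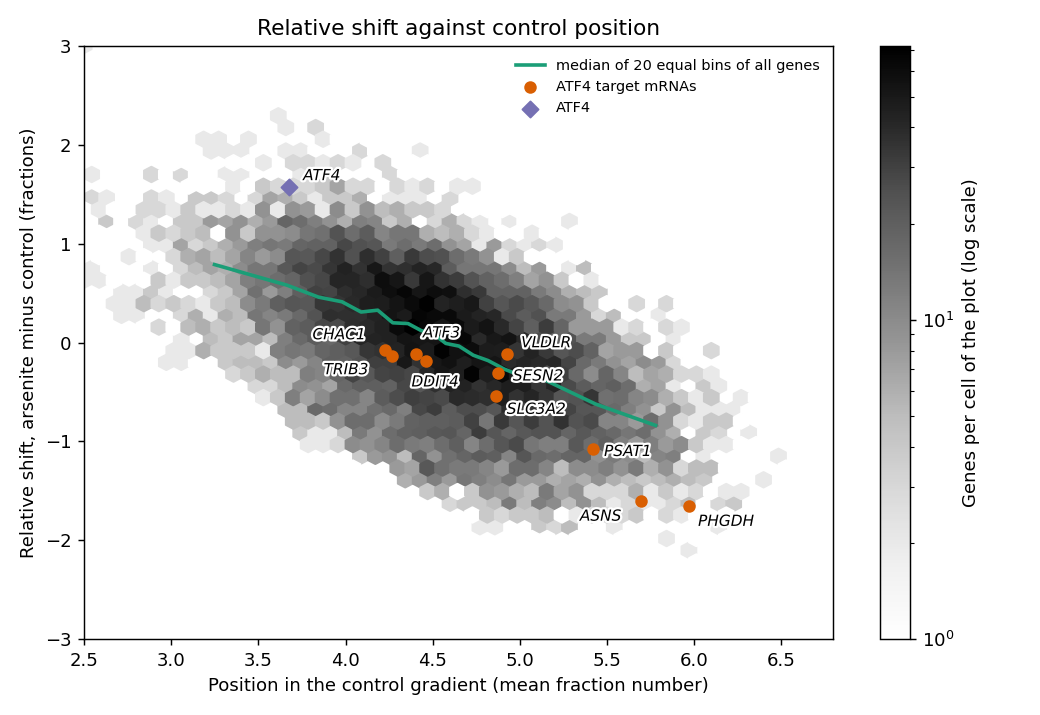
Relative shift (fractions) against position in the control gradient for all genes (grey density), the 10 ATF4 targets (orange) and ATF4 (purple), with the median of 20 equal bins of genes (green line). PHGDH and ASNS lie at the far right and lowest, at −1.65 and −1.60, and ATF4 lies at the upper left, at 1.57.

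ATF4 itself moved to higher fraction numbers relative to the median gene, which none of the 10 targets did. Its shares in fractions 1 to 8 were 4.61%, 13.3%, 20.1%, 34.9%, 19.0%, 5.03%, 1.90% and 1.12% with arsenite, and 2.80%, 15.8%, 27.8%, 32.0%, 12.3%, 5.79%, 2.46% and 0.998% in control. Fraction 4 was the largest in both gradients. In the deposited shares, of the whole profile 88.4% was common to both, against 24.6% to 61.1% among the targets. The share in fractions 5 to 8 was 27.1% with arsenite and 21.6% in control. The near match of the ATF4 profiles did not hold with size factors. ATF4 then lay at 5.08 with arsenite and 3.44 in control. Fractions 5 to 8 held 59.2% with arsenite and 20.1% in control, and ATF4 peaked in fraction 4 with arsenite and 2 in control. The overlap of its profiles was then 60.05%, within the 44.3% to 86.2% of the targets. ATF4 had a relative shift of 1.57, or 1.87 with size factors, and moved to higher numbers. In control the target most like ATF4 was TRIB3, which differed from it by 27.9 points of the total, and with arsenite it was VLDLR, at 21.2 points. With size factors CHAC1 was the most like it in control, at 24.3 points, and VLDLR with arsenite, at 13.3 points. In the deposited shares the largest difference from ATF4 was 66.2 points in control, for PHGDH, and 41.4 with arsenite, for ASNS. Pairs of targets there differed from each other by 9.06 to 58.3 points in control and by 3.41 to 29.8 with arsenite. In control the distances of ATF4 from the targets thus lay within the range among the targets, except for PHGDH and PSAT1 (59.2 points). With arsenite only VLDLR lay within that range. Every other target lay further from ATF4 than any pair of targets from each other, from 34.2 points for SESN2 upward.

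Further genes of the pathway were taken from lists of known ATF4 targets and partners. Of 51 listed genes besides the 10, 47 were in the table, ATF4 among them. Of these, 24 moved lower, 6, including ATF4, moved higher and 17 were called neither, with a median relative shift of −0.54. The counts of each list below are to be read beside the 24.0% of all genes that moved lower and the 23.6% that moved higher. Centred on genes of like control position, 9 of the 47 moved lower, a share close to the 20.2% of all genes in that setting, as was that of the 2 of 10 targets. Among 10 other enzymes of amino acid and one-carbon metabolism 6 moved lower and none higher. SHMT2, which passes a carbon unit from serine to folate in mitochondria, lay at 2.84 with arsenite and 5.66 in control and was the lowest of them, at −1.36. ALDH1L2, a mitochondrial folate enzyme, was the highest at 0.13. The 4 genes of the list that met neither rule were PSPH, ALDH1L2, CBS and GPT2, although CBS moved lower without fraction 1 or 5. PSPH, which completes serine synthesis after PHGDH and PSAT1, had a relative shift of 0.03. Of the 6 calls, MTHFD2 at −0.54 and PYCR1 at −0.59 were the closest to the threshold. MTHFD2 lost its call with size factors (−0.33), with the added percentage point (−0.499) and without fraction 2 (−0.38) or 5 (−0.47), and PYCR1 without fraction 1 (−0.46) or 5 (−0.39) and, its sign not being kept, without fraction 2. CTH (−0.49) and MTHFD1L (−0.39) lost theirs without fraction 7. Centred on genes of like control position, SHMT2, PYCR1 and CTH remained called.

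Of 8 other amino acid transporters, 2 moved lower and 6 were called neither. SLC1A5, a glutamine transporter, lay at 2.71 with arsenite and 5.45 in control, a relative shift of −1.28. SLC7A11, the light chain that pairs with SLC3A2 to import cystine, lay at 3.94 and 5.01 in the same order, with a relative shift of 0.38, and was the highest of the list. SLC7A5, the light chain that pairs with SLC3A2 to carry leucine, had a relative shift of −0.0045 and of −0.02 with size factors. The second transporter that moved lower was SLC1A4, at −0.78. It lost its call without fraction 7, at −0.42, and with centring on genes of like control position, at −0.31, and in each of these settings SLC7A11 and SLC7A1 moved higher. SLC7A1 also moved higher without fraction 3. SLC38A2 moved lower with size factors, at −0.68.

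All 12 cytosolic tRNA synthetases listed as ATF4 targets moved lower, from WARS, for tryptophan, at −1.32 to LARS, for leucine, at −0.73. XPOT, which exports tRNAs from the nucleus, was the member of that list called neither, at 0.17. With size factors XPOT moved higher, at 0.62. The synthetases lay furthest along of these lists in control, with a median position over the list of 3.06 with arsenite and 5.46 in control. WARS lay at 2.57 with arsenite and 5.34 in control. Measured from genes of like control position, SARS and WARS alone remained called, the list median was −0.29, and LARS had a value of 0.11. Without fraction 7, 7 of the 12 remained called, and AARS, CARS, IARS, LARS and NARS did not. Without fraction 8, 10 remained called, AARS and LARS being lost, and with the point of 50% of the total AARS was lost as its sign was not kept.

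Of 9 other transcription factors and feedback regulators, 5 moved higher and none lower. These were ATF4, PPP1R15A at 1.10, DDIT3 at 0.79, ATF5 at 0.75 and JDP2 at 0.69. PPP1R15A is the phosphatase subunit that reverses eIF2 phosphorylation, and DDIT3 is a proapoptotic partner of ATF4. CEBPB, a C/EBP partner that binds the composite element with ATF4, was the lowest at −0.14 and lay at 0.49 with size factors. The median of this list was 0.69. Measured from genes of like control position it was 0.11, and ATF4, ATF5 and PPP1R15A remained called while DDIT3 (0.21) and JDP2 (0.11) did not. JDP2 was not called without fraction 7 either, at 0.46. CEBPG, called neither, moved higher with size factors (0.58), without fraction 1, 4 or 5 and with the point of 50% of the total. NUPR1, also called neither, moved higher without fraction 5. Among 7 other stress and secreted genes, VEGFA, an angiogenic growth factor, moved higher at 0.69, and 4 moved lower. SQSTM1, an autophagy receptor, was the lowest at −0.77. The remaining 3 that moved lower were MAP1LC3B, HERPUD1 and EIF4EBP1, and EIF4EBP1, which restrains cap-dependent translation, had the lowest position of the named genes with arsenite, at 1.65, against 3.76 in control. EIF4EBP1 lost its call with size factors, with the added percentage point, with the point of 50% of the total and without fractions 1, 2, 4 or 5, in part because its sign was then not kept, and its value without fraction 1 was −0.05. HERPUD1 lost its call with size factors (−0.49) and without fraction 6 (−0.38), and MAP1LC3B without fraction 5 (−0.44). VEGFA, at 0.37, and SQSTM1, at −0.41, lost theirs with centring on genes of like control position. TNFRSF10B, called neither, moved higher with size factors, at 0.56, and without fraction 6.

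Upstream of ATF4, the genes for the sensor and exchange machinery of eIF2 were split. EIF2AK3, the kinase PERK of the endoplasmic reticulum, moved higher at 0.56, and the 3 other eIF2 kinases were called neither, with EIF2AK4, the amino acid sensor GCN2, at 0.48, EIF2AK1, the kinase HRI that arsenite activates, at 0.22 and EIF2AK2, the RNA sensor PKR, at 0.16. EIF2S1, the subunit they phosphorylate, moved lower at −1.16. All 5 subunits of the exchange factor eIF2B moved lower, from EIF2B3 at −1.59 to EIF2B4 at −0.80. EIF2B3 lay at 2.36 with arsenite and 5.40 in control. The call of EIF2AK3 was lost without fractions 1, 2, 5 or 6, at values from 0.41 to 0.49, and those of EIF2B4 (−0.33) and EIF2B5 (−0.44) with centring on genes of like control position. EIF2AK4 in turn moved higher with size factors, at 0.67, and without fraction 2 or 3. The same call was made for EIF2AK4 with that centring, with the point of 50% of the total and over genes with no 0. EIF2AK1 moved higher without fraction 2. The contrast between these kinases therefore depends on the setting.

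**Figure D4:**
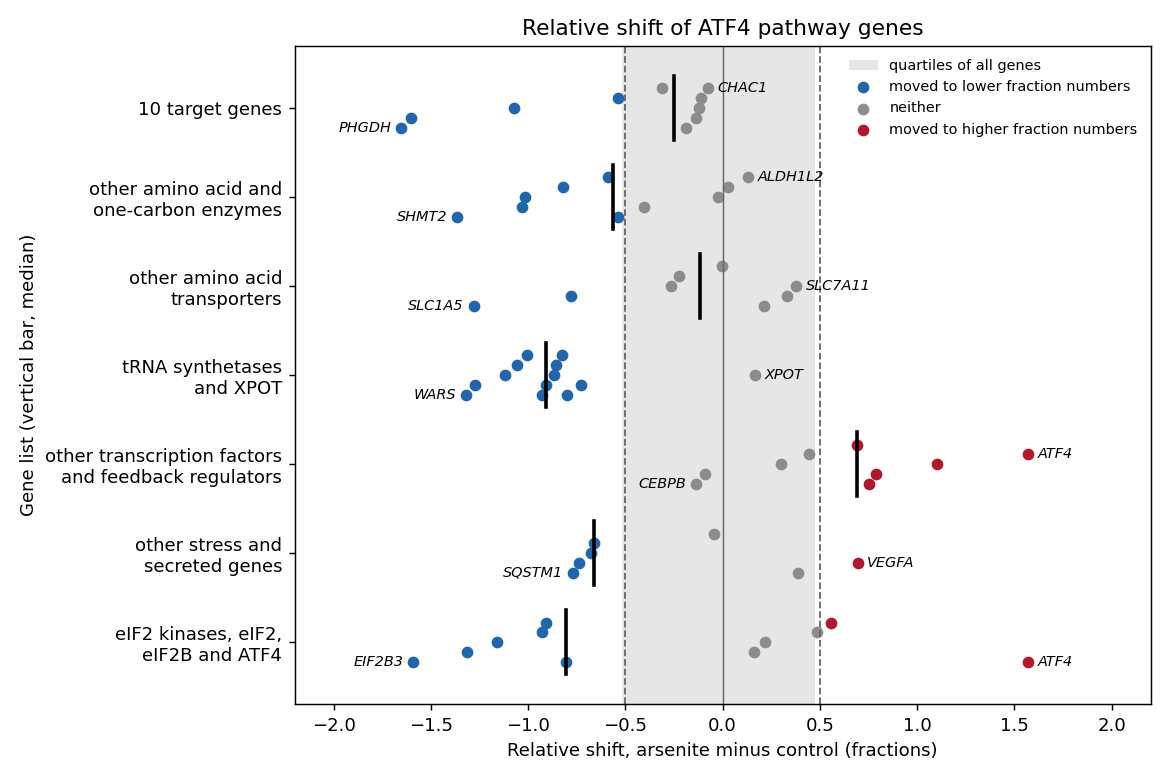
Relative shift (fractions) of each gene in the lists of the ATF4 pathway, 1 point per gene, coloured by whether it moved lower, moved higher or was called neither; the grey band gives the quartiles of all genes, the dashed lines the threshold of 0.5 fractions and the vertical bars the list medians. The tRNA synthetases lie below −0.7 while 5 of 9 transcription factors and feedback regulators lie above 0.5.

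For each target the 1 gene most like it over all 16 libraries was picked from 11624 genes with no 0, by the smallest summed difference of shares. For PHGDH it was PGK1, the glycolytic enzyme that makes its substrate, which differed by 4.06 percentage points of the total with arsenite and 3.72 in control. For ASNS it was OAT, ornithine aminotransferase, at 5.71 and 7.21 points with arsenite and in control. The gene nearest to PSAT1 was AHCYL1, that nearest to SLC3A2 was NMD3, and that nearest to ATF3 was BTF3L4. BACE2 was nearest to TRIB3, CPSF4 to CHAC1, ZNF444 to DDIT4, RTKN to SESN2 and SULF2 to VLDLR. No member was the nearest gene of another member.

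**Figure D5:**
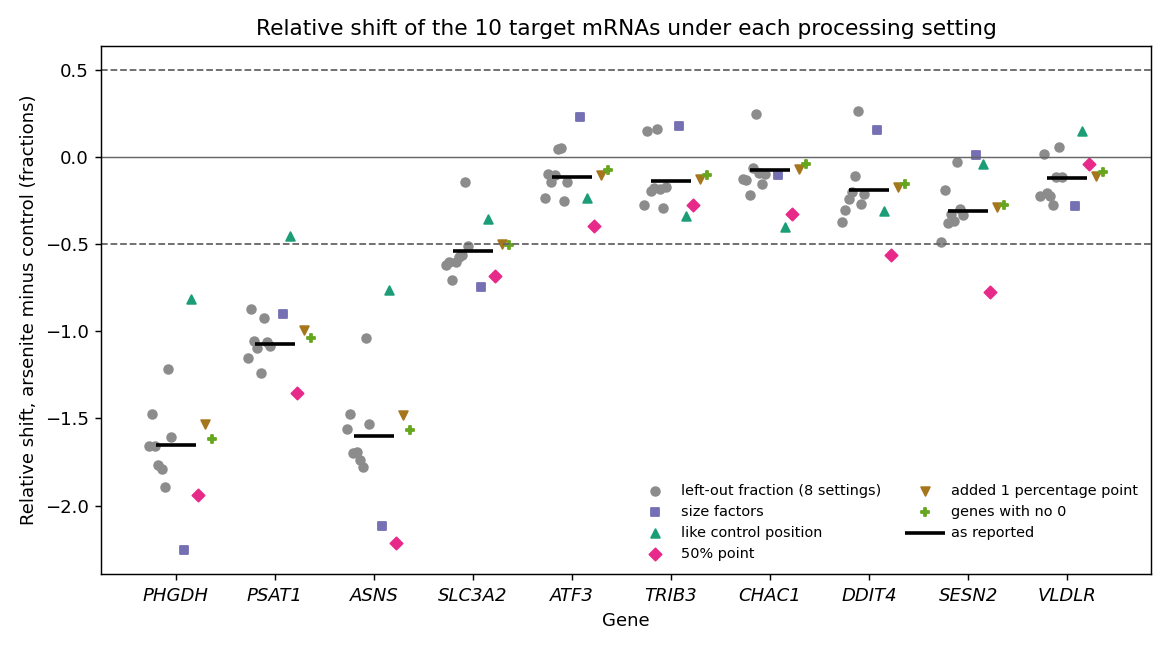
Relative shift (fractions) of the 10 targets as reported (black bars) and under each alternative setting (symbols), with the threshold of 0.5 fractions dashed. PHGDH and ASNS stay below −0.5 under every setting shown, and the 6 genes from ATF3 to VLDLR lie on both sides of 0.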

How the data were processed

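Total RNA from sucrose gradient fractions was sequenced after Trizol extraction, with libraries made by NSR (per the labels' protocols). The authors deposited 1 table of 13148 genes with 16 columns in the unit fraction, the share of a gene's total in each fraction of a gradient, given here as percent. Per the file headers, values refer to RefSeq exons. Per the submitters' processing notes, reads were placed on hg19. What aligner, counting, strand setting, gene filter and weights of fractions were used was not given in the sources used here. In 3 further score columns the authors deposited mean fraction numbers and their difference, which the position recomputed here matched. Depth is unknown, so no interval is given.

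Groups were read from the sample titles. Shifts and calls were computed over all genes with numpy 2.4.6 and pandas 2.3.3. Profile difference is the summed absolute difference of shares divided by 2. Coding lengths came from GENCODE release 29 by gene symbol for 12316 genes (93.7%), 1 transcript per gene. The principal isoform was used where 1 was marked. The transcript with the longest coding sequence was used where none was marked. It was also used where the principal isoform had under 50% of the longest coding length. The named genes were the 10 targets, ATF4, the highest and lowest of each list and the nearest gene of each target; other members of the lists were named after their values were seen. The members and lists were chosen with earlier results of these data known. Alternatives were size factors, an added percentage point, leaving out each fraction, centring within 20 bins of control position, the point of 50% of the total, genes with no 0, thresholds of 0.25 and 1 fractions, and pseudocounts of 0.1 and 10 percentage points for log2 ratios.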

Additional observations from a re-analysis of the deposited data

How the results depend on the processing

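ASNS and PHGDH were called moved to lower numbers under all 13 alternatives for single genes, with relative shifts from −2.22 to −0.76 for ASNS and from −2.26 to −0.82 for PHGDH. PSAT1 lost its call under 1, centring on genes of like control position, and SLC3A2 under 3, that one, without fraction 7 and with an added percentage point. The other 6 genes were called neither under each of the 13, although their signs varied. With the point of 50% of the total SESN2 (−0.77) and DDIT4 (−0.56) were past the threshold in size, but their sign was not kept. At a threshold of 0.25, 5 targets moved lower, SESN2 among them, beside 31.3% of all genes. At a threshold of 1, 3 targets did, beside 9.33%. The count of targets moved lower was 2 with centring on like control position, against 4, beside 20.2% of all genes that moved lower in that setting, and the count moved higher was 0 throughout. Their median of −0.25 was −0.43 without fraction 1, −0.15 without fraction 6 and −0.62 with the point of 50% of the total; the cause was not tested. The 47 other pathway genes include ATF4, which is 1 of the 6 that moved higher. That count was 10 at a threshold of 0.25 (34.8% of all genes) and 2, ATF4 among them, at 1 (6.69%). The 24 that moved lower became 9 at a threshold of 1 (9.33% of all genes) and 9 with centring on like control position (20.2%). The median of the 47 genes, −0.54, was −0.34 without fraction 7 and −0.11 with that centring. Of 80 log2 ratios, 6 changed by over 1.5 times with a pseudocount of 0.1 and 66 with 10, all with the same sign. No paired analysis was possible because each treatment and fraction has 1 library. Depth is unknown, so its limits cannot be given.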
